A study of Homo sapiens with 4 samples.

Results

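The miR-148 and miR-152 family comprises 5 of the 2588 mature miRNAs listed in each of 4 exosome libraries: miR-148a-3p, miR-148a-5p, miR-148b-3p, miR-148b-5p and miR-152-3p. They were taken by name (hsa-miR-148a-3p, hsa-miR-148a-5p, hsa-miR-148b-3p, hsa-miR-148b-5p and hsa-miR-152-3p) from the table of each library. The libraries hold small RNA from exosomes, vesicles that cells release into their medium, of a pair of colon cancer lines labelled HCT15 and HCT29. Parental cells grew in complete RPMI and released the exosomes into the same medium depleted of exosomes beforehand. Spheres, floating colonies used to enrich for stem-like cells, grew for 3 weeks in DMEM/F12 containing EGF and bFGF at 10 ng/ml each and N2 supplements. The study asked which exosomal miRNAs differ between spheres and parental cells, and each combination of line and culture is 1 library. Culture form and medium therefore differ together and cannot be told apart. HCT15 is also the line named in the growth text of the HCT29 samples, so the labels do not settle which line the HCT29 libraries come from.

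Mature miRNAs guide Argonaute proteins to messenger RNAs through their seed, and a hairpin can give one product from its 5' arm (5p) and one from its 3' arm (3p). One arm is usually loaded and kept as the guide, and its partner is mostly degraded. In this family the 3p arms are the usual guides. Their best known target is DNMT1, the enzyme that maintains DNA methylation, and lower miR-148a and miR-152 have been described in gastrointestinal tumours.

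The 3 guide arms are shown first because they share a seed and differ in few bases, which bears on how far their reads can be kept apart. Sequences and positions are those of RefSeq on GRCh38.p14, where 4 of the 5 members had a mature entry (miR-148a-5p did not), and capitals mark the seed, bases 2 to 8.
miR-148a-3p: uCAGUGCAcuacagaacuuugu
miR-148b-3p: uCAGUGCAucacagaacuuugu
miR-152-3p: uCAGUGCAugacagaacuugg
Counted from the 5' end, miR-148b-3p differs from miR-148a-3p by C9U and U10C, and miR-152-3p differs from miR-148a-3p by C9U, U10G and U20G. No other human mature miRNA of the 2370 in the RefSeq table had the seed CAGUGCA, whose matching site in a target reads UGCACUG. The partner arms do not carry this seed, as miR-148b-5p and miR-152-5p show, the latter listed in the tables but not a member.
miR-148b-5p: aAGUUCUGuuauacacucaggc
miR-152-5p: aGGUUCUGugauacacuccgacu
How mismatched reads were assigned is not given in the sources used here, so the split of reads among the 3 guide arms is uncertain to the extent that reads with errors at those few positions were counted.

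The hairpins lie on different chromosomes, and they are printed to show where each guide arm sits, with the 3p arm in capitals.
MIR148A: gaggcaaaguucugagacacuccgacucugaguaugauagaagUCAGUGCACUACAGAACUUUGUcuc
MIR148B: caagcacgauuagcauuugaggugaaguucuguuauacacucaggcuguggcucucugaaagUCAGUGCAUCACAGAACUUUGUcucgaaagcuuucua
MIR152: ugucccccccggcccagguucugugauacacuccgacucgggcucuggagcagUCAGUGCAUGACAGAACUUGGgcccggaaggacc
MIR148A lies on the minus strand of chromosome 7 from 25949919 to 25949986 and overlaps no other gene of GENCODE release 29. MIR148B lies on the plus strand of chromosome 12 from 54337216 to 54337314, within COPZ1 and outside its exons, and also within AC078778.2, a gene annotated as overlapping on the same strand. MIR152 lies on the minus strand of chromosome 17 from 48037161 to 48037247, within COPZ2 and outside its exons. COPZ1 and COPZ2 encode related subunits of the COPI coat of transport vesicles, and both hairpins are on the strand of their host.

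Levels are in RPM, in which reads are scaled to the same total in each library, and values above 0 are whole multiples of 1 read within 0.1 read. The totals so implied are 110666 and 146648 reads in the parental and 461226 and 530920 in the sphere libraries, so 1 read is worth 1.88 to 9.04 RPM. Intervals are exact 95% Clopper-Pearson intervals, and with 1 library per group they cover counting error only. All 9 colon epithelial markers (among them miR-192-5p, miR-200c-3p and miR-375) had a read in every library, summing to 15043 RPM (HCT15 parental), 22915 RPM (HCT15 sphere), 98946 RPM (HCT29 parental) and 132410 RPM (HCT29 sphere).

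miR-148a-3p was the leading member in all 4 libraries and far more abundant in HCT15. In HCT15 it stood at 6417 RPM in parental (6014 to 6839) and 10034 RPM in sphere exosomes (9748 to 10326). In HCT29 it stood at 1166 RPM in parental (973 to 1385) and 974 RPM in sphere exosomes (892 to 1061). The order was thus HCT15 sphere, HCT15 parental, HCT29 parental and HCT29 sphere, and the intervals of the HCT29 libraries overlapped. Among all listed miRNAs its rank was 20 in parental and 14 in sphere exosomes of HCT15, and 56 and 44 in those of HCT29. Fewer vesicles carrying a miRNA and fewer copies per vesicle cannot be told apart in such libraries.

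miR-148b-3p, the guide from the COPZ1 intron, was more even. It stood at 546 RPM in parental (433 to 679) and 631 RPM in sphere exosomes of HCT15 (561 to 708), and at 732 RPM in HCT29 parental exosomes (581 to 910). HCT29 sphere exosomes were lower at 303 RPM (258 to 354), and the other 3 libraries had overlapping intervals. miR-152-3p, the guide from the COPZ2 intron, was scarce. It had 12 reads in HCT15 parental (81.8 RPM, 42.3 to 143) and 74 in HCT15 sphere exosomes (160 RPM, 126 to 201). In HCT29 it had 0 reads in the parental library, where 3 reads would be 27.1 RPM, and 7 in the sphere library (13.2 RPM, 5.30 to 27.2).

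Both partner arms were below the guide of their own hairpin in all 4 libraries. miR-148a-5p stood at 532 RPM in HCT15 parental (420 to 664, 78 reads), close to miR-148b-3p there, and at 75.9 RPM in HCT15 sphere exosomes (52.9 to 106, 35 reads). It had 3 and 9 reads in HCT29 parental and sphere, or 27.1 RPM (5.59 to 79.2) and 16.95 RPM (7.75 to 32.2). HCT15 parental was apart from the other 3 libraries, and the HCT29 libraries had overlapping intervals. miR-148b-5p had 12 reads in parental and 27 in sphere exosomes of HCT15 (81.8 and 58.5 RPM), and 6 and 13 in those of HCT29 (54.2 and 24.5 RPM). Its highest and lowest levels, in HCT15 parental (42.3 to 143) and HCT29 sphere (13.0 to 41.9), were the only pair of libraries whose intervals did not overlap.

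**Figure D1:**
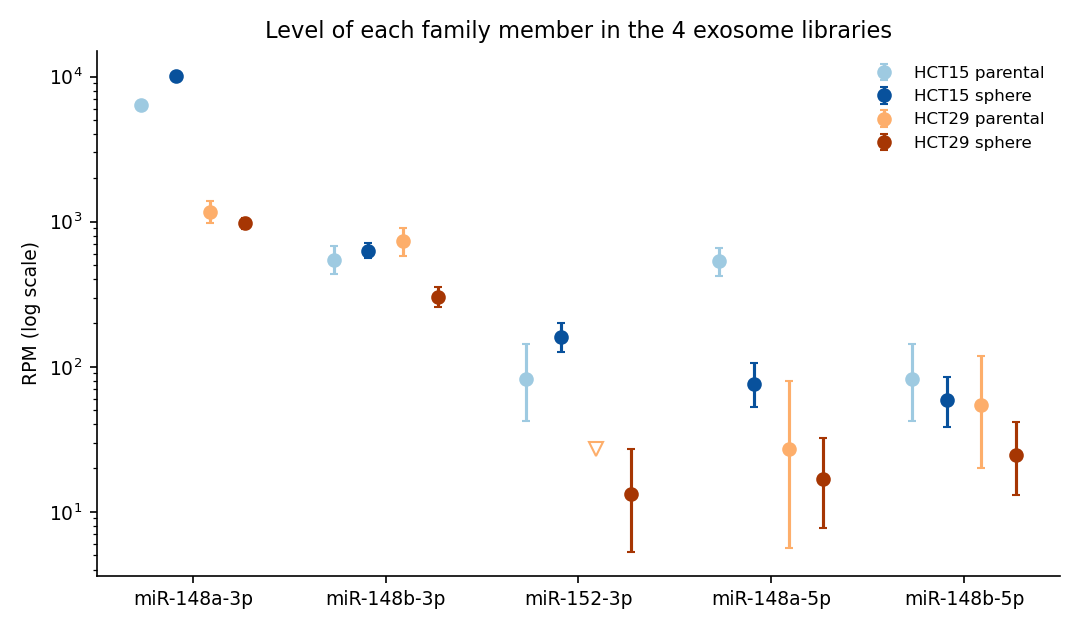
Level of each member in RPM on a log axis, 1 point per library with its exact 95% counting interval. The open triangle marks a count of 0, drawn at the level of 3 reads (27.1 RPM). miR-148a-3p lies at 6417 and 10034 RPM in HCT15 and at 1166 and 974 RPM in HCT29, while miR-148b-3p lies between 303 and 732 RPM in all 4.

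Of all listed miRNA reads, the family took 0.984% in the parental library of HCT15 (0.927 to 1.04) and 1.22% in its sphere library (1.19 to 1.25), against 0.227% (0.198 to 0.259) and 0.153% (0.142 to 0.165) in HCT29. Like RPM, these shares are relative to the other RNAs of each library. Within the family, miR-148a-3p made up 83.8% of the parental (81.5 to 85.9) and 91.6% of the sphere reads of HCT15 (90.8 to 92.3). In HCT29 it made up 58.9% of the parental (52.1 to 65.5) and 73.1% of the sphere reads (69.7 to 76.4). miR-148b-3p took most of the remainder in HCT29, with 37.0% (30.6 to 43.8) and 22.8% (19.7 to 26.0), against 7.12% (5.69 to 8.79) and 5.76% (5.13 to 6.43) in HCT15. In reads, miR-148a-3p outnumbered miR-148b-3p 11.8 to 1 in parental (9.35 to 15.0) and 15.9 to 1 in sphere exosomes of HCT15 (14.1 to 18.0). In HCT29 the same ratio was 1.59 in parental (1.20 to 2.13) and 3.21 in sphere exosomes (2.69 to 3.86).

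**Figure D2:**
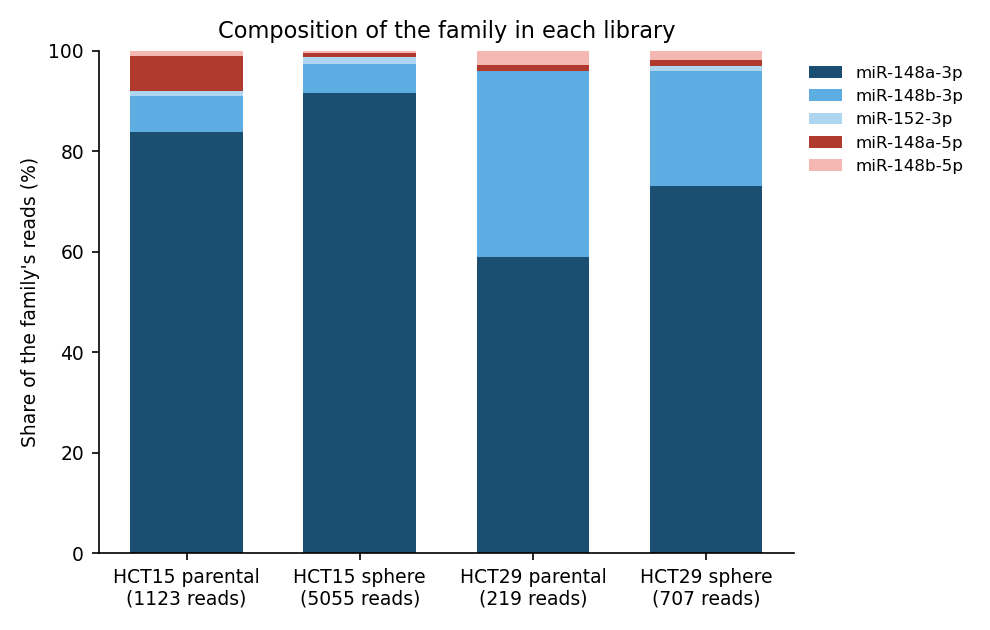
Share of the family's reads (%) held by each member, 1 bar per library, with the number of family reads under each bar. miR-148b-3p holds 37.0% and 22.8% in HCT29 parental and sphere and 7.12% and 5.76% in HCT15.

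The question within a line is how the members differ between exosomes of spheres and of parental cells. In HCT15 spheres miR-148a-3p and miR-152-3p were somewhat higher by RPM, miR-148b-3p showed no clear difference, and miR-148a-5p was far lower. miR-148a-3p was 1.56-fold higher (1.46 to 1.68), miR-148b-3p had a ratio of 1.16 with an interval that includes 1 (0.900 to 1.50), and miR-152-3p was 1.96-fold higher (1.06 to 3.97). miR-148a-5p was 7.01-fold lower (4.65 to 10.8), and miR-148b-5p had a ratio of 0.715 with an interval that includes 1 (0.350 to 1.55). Calls were made at 2-fold or more on log2(RPM + 1) among miRNAs that reached 10 reads in either library, a filter that all 5 members passed. By that rule 0 members were higher and 1 (miR-148a-5p) was lower, where 32.1% of the 305 miRNAs measured were higher and 28.2% lower. The median log2 ratio was 0.21 over the members and -0.12 over all measured miRNAs.

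These ratios depend on how the libraries are scaled. TMM scaling, which takes 1 factor per library from a trimmed mean of log ratios, moved the median log2 ratio of all measured miRNAs in HCT15 by 0.61, from -0.12 to 0.49. It put miR-148a-3p at 2.39 and miR-152-3p at 2.99, so 2 of 5 members were called higher, where 40.3% of all measured miRNAs were higher under the same scaling. DESeq2 size factors gave 3 of 5, where 45.9% of all were higher. miR-148a-5p was lower under either, with a ratio of 0.218 under TMM, where 16.7% of all were lower, and 0.267 under DESeq2 factors, where 14.8% were. The ratio of miR-148b-5p turned from 0.715 to 1.09 under TMM and 1.34 under DESeq2 factors. Scaling to listed miRNA reads moved the guide ratios down instead, to 1.35 for miR-148a-3p, 1.00 for miR-148b-3p and 1.70 for miR-152-3p. Listed miRNA reads made up 77.8% of the implied total in HCT15 parental and 89.9% in HCT15 sphere. Markers of other cells also moved between these libraries. All 4 measured blood and serum markers of 7 were lower in HCT15 spheres, their sum going from 4023 to 151.8 RPM, and miR-451a and miR-223-3p were at 0 in the sphere library. All 4 measured fibroblast and smooth muscle markers of 5 were higher, their sum going from 1180 to 4479 RPM. miR-199a-5p and miR-214-3p of that list were at 0 in the parental library. The part of these cells in the family's ratios was not tested.

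The same comparison in HCT29 gave lower levels of miR-148b-3p in spheres and no clear difference in miR-148a-3p. miR-148b-3p was 2.41-fold lower (1.82 to 3.17), and miR-148a-3p had a ratio of 0.835 (0.688 to 1.02). miR-148b-5p had a ratio of 0.452 on 6 parental and 13 sphere reads, with an interval that includes 1 (0.160 to 1.45). miR-148a-5p, at 3 and 9 reads, did not pass the filter and had a ratio of 0.625 (0.156 to 3.59). miR-152-3p, at 0 and 7 reads, did not pass either, and its sphere level lies below that of 3 parental reads, so no fold is given. Of the 3 members measured, 0 were higher and 2 lower (miR-148b-3p and miR-148b-5p), where 23.2% of 224 measured miRNAs were higher and 36.2% lower. The median log2 ratio of those 3 was -1.12, against -0.57 over all measured miRNAs.

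Under TMM scaling, which moved the HCT29 median by 1.15, from -0.57 to 0.58, neither member was called lower, and the share of all measured miRNAs called lower went from 36.2% to 16.1%. The ratio of miR-148b-3p became 0.932, that of miR-148a-3p turned to 1.88, and DESeq2 size factors gave 0.915 and 1.85. In this line the blood and serum markers summed to 1636 RPM in parental and 360 RPM in sphere exosomes, with both measured members lower. The fibroblast and smooth muscle markers summed to 1473 RPM in parental and 181 RPM in sphere exosomes, with both measured members lower. miR-199a-5p and miR-214-3p were at 0 in both libraries, and miR-145-5p had 3 reads in parental and 0 in sphere exosomes. Their part in the family's ratios was not tested.

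**Figure D3:**
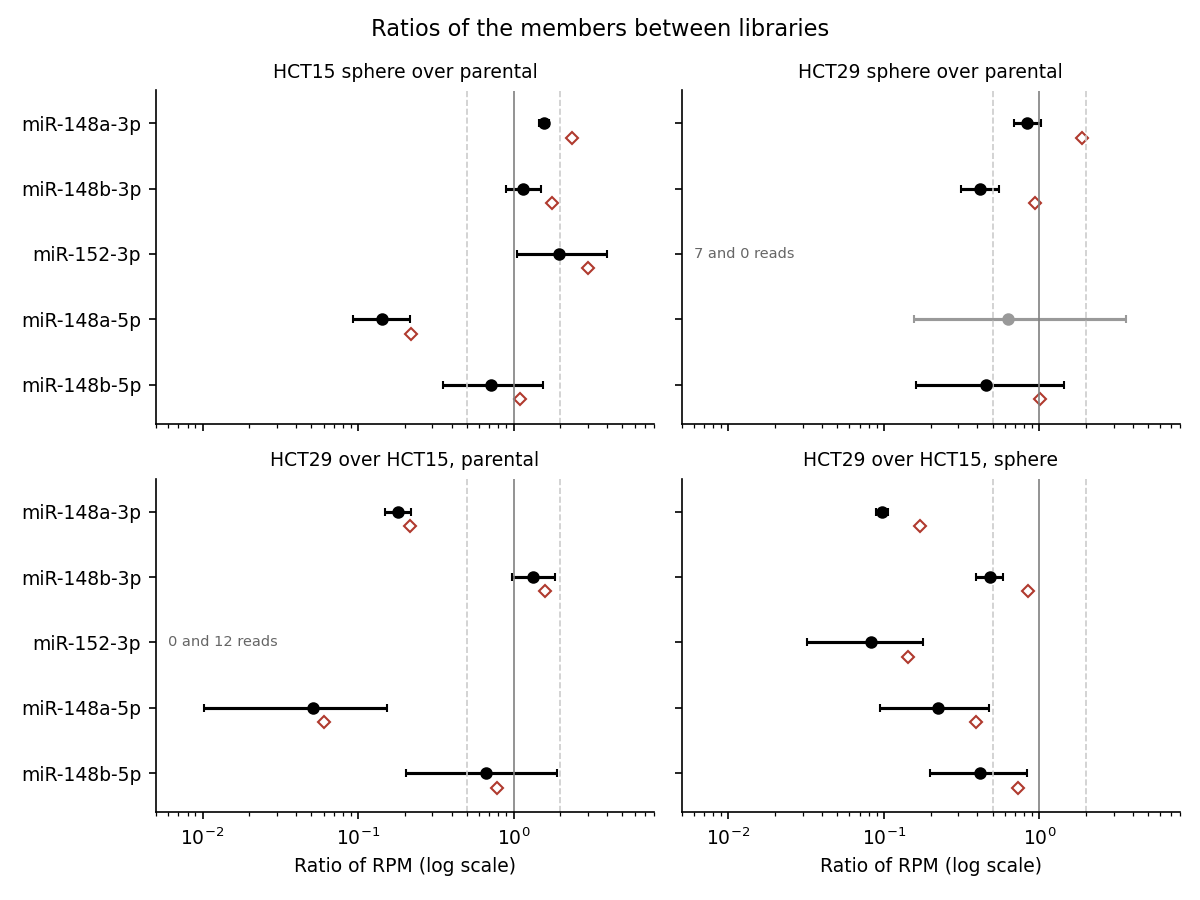
Ratio of RPM of each member in the 4 comparisons, on a log axis, with exact 95% counting intervals. Grey marks a member under 10 reads in both libraries, open diamonds give the ratio under TMM scaling, and dashed lines mark 2-fold. miR-148a-5p in HCT15 spheres (0.143) and miR-148a-3p in HCT29 against HCT15 (0.182 and 0.0970) stay outside 2-fold lower under TMM.

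The sphere to parental ratio of miR-148a-3p was 1.87 times as large in HCT15 as in HCT29 (1.52 to 2.30, a normal interval on the log scale for counting error), and that of miR-148b-3p was 2.79 times as large (1.94 to 4.02). Under TMM scaling these became 1.27 and 1.90, and under DESeq2 factors 1.58 and 2.36. With 1 library per group the difference between the lines has no replicate test.

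Ratios between members of the same library are free of that scaling. The ratio of miR-148a-3p to miR-148b-3p was higher in spheres of both lines, by 1.35 times in HCT15 (exact conditional 95% interval 1.03 to 1.76) and by 2.02 times in HCT29 (1.43 to 2.84). The ratio of miR-148a-3p to miR-152-3p was 78.4 in parental (44.7 to 152.3) and 62.5 in sphere exosomes of HCT15 (49.7 to 79.8), and 73.9 in sphere exosomes of HCT29 (35.6 to 185). These 3 values have overlapping intervals, so no difference in the proportion of these guides was detectable at this depth. In HCT29 parental, 129 reads of miR-148a-3p stood beside 0 of miR-152-3p, where the lower limit of the ratio is 34.5.

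The arm balance of miR-148a showed the largest shift among the members between HCT15 cultures. The parental library held 941 reads of the guide arm and 78 of the partner arm, a ratio of 12.1 (9.57 to 15.4). The sphere library held 4628 and 35, a ratio of 132 (94.9 to 190). The ratio was thus 11.0 times as large in sphere exosomes (7.21 to 16.9), and the partner arm went from 7.65% to 0.751% of the reads of this hairpin. In HCT29 the same ratio was 43.0 in parental (14.4 to 211) on 3 partner reads and 57.4 in sphere exosomes (30.0 to 126), a change of 1.34 times with an interval that includes 1 (0.229 to 5.45).

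For the other hairpins no shift was detectable at this depth. For miR-148b the guide to partner ratio was 6.67 in HCT15 parental (3.61 to 13.4) and 10.8 in sphere exosomes (7.26 to 16.6), a change of 1.62 times (0.712 to 3.47). In HCT29 it was 13.5 (5.94 to 37.9) and 12.4 (7.04 to 23.8). miR-152-5p had 5 reads in HCT15 sphere exosomes beside 74 of miR-152-3p, a ratio of 14.8 (6.06 to 46.9), and 0 reads in the other 3 libraries.

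To place these shifts, the change in arm balance was taken for all 59 hairpins with at least 10 reads of each arm in an HCT15 library, a comparison chosen after the values of miR-148a were seen. The more abundant arm was taken from reads summed over all 4 libraries, in which the deeper sphere libraries weigh most. By that definition, 25 moved 2-fold or more toward their more abundant arm in spheres and 15 away from it. The median log2 change was 0.72. A hairpin whose arms switch can count as toward, as miR-365a does (log2 of 3p over 5p -1.48 in parental and 5.04 in sphere). The counts and ranks are thus partly set by the definition. miR-148a, at a log2 change of 3.44, ranked 7, behind miR-365a, miR-27a, miR-210, miR-361, miR-200a and miR-141. miR-148b, at 0.72, ranked 29. In HCT29, 34 hairpins qualified, 10 moved toward and 8 away, and miR-148b had a log2 change of -0.068, beside a median of -0.015. Between the parental libraries, 42 hairpins qualified, and 25 moved toward in HCT29 against HCT15 and 8 away. Their median log2 change was 1.70, and miR-148a had 1.63. Between the sphere libraries, 28 of 60 moved toward in HCT29 and 15 away, with a median of 0.68, and miR-148a had -1.26. A trait of the HCT15 parental library and one of sphere culture cannot be told apart here.

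**Figure D4:**
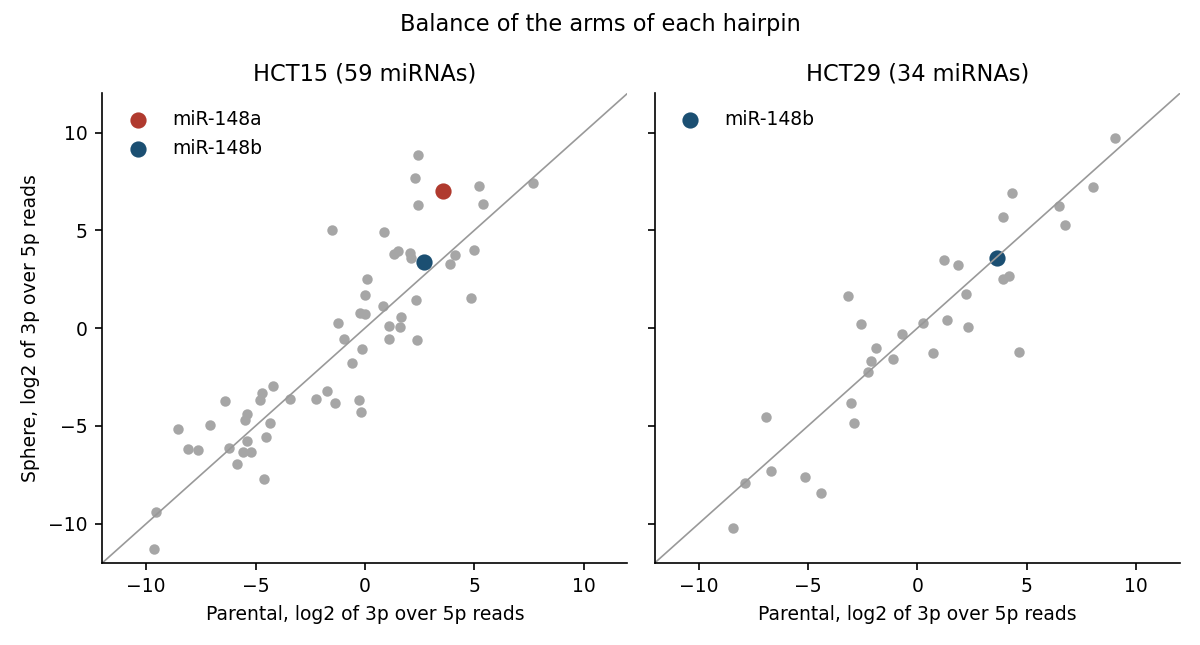
Log2 of the 3p to 5p read ratio (0.5 added to each count) of every hairpin with at least 10 reads of each arm, parental library on the x axis and sphere library on the y axis, 59 hairpins in HCT15 and 34 in HCT29. Points on the line have the same balance in both libraries. miR-148a lies above the line in HCT15 (a log2 change of 3.44) and miR-148b lies near it in both lines.

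HCT29 and HCT15 exosomes were set side by side within each culture to ask how the family differs between the lines. These ratios use the same 4 libraries as those above. Between the parental libraries, miR-148a-3p was 5.50-fold lower in HCT29 (4.58 to 6.67) and miR-148a-5p had a ratio of 0.0510 (0.0103 to 0.155) on 3 HCT29 reads. miR-152-3p, with 12 and 0 reads, was at least 3.02-fold lower against a floor of 3 reads. miR-148b-3p had a ratio of 1.34 (0.973 to 1.85) and miR-148b-5p of 0.663 (0.204 to 1.91), both with intervals that include 1. So 3 of 5 members were called lower and 0 higher, where 46.4% of 224 measured miRNAs were lower and 22.8% higher. Of those called, miR-148a-5p and miR-152-3p passed the filter only through HCT15, where they are high. Their calls are therefore no independent support. The member counts were the same under TMM scaling and DESeq2 factors, where 42.4% and 43.3% of all were lower. Markers of other cells differed here too. All 4 measured blood and serum markers were lower in HCT29. Of 2 measured fibroblast and smooth muscle markers, 1 was higher and 0 lower. The sum of the colon epithelial markers was 6.58-fold higher (6.28 to 6.89), with miR-192-5p alone holding 68268.5 of 98946 RPM in HCT29. Of these 9 markers 7 were higher and 2 lower, miR-375 (5.75-fold) and miR-200c-3p (2.79-fold).

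Between the sphere libraries all 5 members were called lower in HCT29, where 56% of 325 measured miRNAs were lower and 25.2% higher. Here too miR-152-3p (74 HCT15 and 7 HCT29 reads) and miR-148a-5p (35 and 9) passed the filter only through HCT15. Their calls are no independent support. miR-148a-3p was 10.3-fold lower (9.41 to 11.3) and miR-152-3p 12.2-fold lower (5.62 to 31.3). miR-148a-5p was 4.48-fold lower (2.11 to 10.6), miR-148b-5p 2.39-fold (1.19 to 5.05) and miR-148b-3p 2.08-fold (1.71 to 2.54). Under TMM scaling, which moved the median of this comparison by 0.79, 3 were lower, where 47.1% of all were, and the ratio of miR-148b-3p became 0.841. All 4 measured fibroblast and smooth muscle markers were lower in HCT29 spheres. Their sum stood at 4479 RPM in HCT15 and 181 RPM in HCT29. The blood and serum sum was 2.37-fold higher (1.79 to 3.16), with 1 of 2 measured markers called higher and 0 lower. The sum of the colon epithelial markers was 5.78-fold higher (5.66 to 5.90). Of these 9 markers 6 were higher and 2 lower, miR-141-3p (3.75-fold) and miR-200a-3p (2.03-fold). In HCT29, miR-192-5p (75266 RPM) and miR-375 (45016 RPM) held most of the 132410 RPM. The part of these markers' cells in the differences between the lines was not tested. The read ratio of miR-148a-3p to miR-148b-3p was 7.39 times lower in HCT29 than in HCT15 between parental libraries (5.06 to 10.7) and 4.95 times lower between sphere libraries (3.97 to 6.15).

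With the lines as replicates of the culture and the cultures as replicates of the line, limma was run on log2(RPM + 1). The 222 miRNAs tested reached 10 reads in 2 or more libraries, a filter that all 5 members passed. miR-152-3p and miR-148a-5p passed it only through the HCT15 libraries, where they are high. The fit has 1 residual degree of freedom, so limma took the variance largely from a trend over all 222 miRNAs. Its SE and p therefore do not measure a member's own spread. For culture, limma called 0 miRNAs at a Benjamini-Hochberg adjusted p under 0.05 (0%), with 12 at an unadjusted p under 0.05. edgeR's quasi-likelihood test on the recovered reads called 0 and limma on TMM-scaled values 1, which is no member. Among the members, the limma log2 difference of spheres from parental exosomes was -1.72 for miR-148a-5p (SE 1.31, adjusted p 0.968, higher in 0 of 2 lines). It was 0.19 for miR-148a-3p (SE 1.29, adjusted p 0.970, higher in 1 of 2). For miR-152-3p, with 0 and 7 reads in HCT29, the limma difference was 2.39 (SE 1.73, adjusted p 0.968). It became 4.01 with a pseudocount of 0.1 and 1.05 with one of 10, so its size depends on the pseudocount, and the HCT29 sphere level lies below that of 3 parental reads.

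For the line, limma called 28 of the 222 miRNAs (12.6%), 8 of them higher in HCT29 (3.6%) and 20 lower (9.01%). edgeR called 5 higher and 5 lower. Of the members, miR-152-3p was among those limma called lower, with a log2 difference of -4.94 (SE 1.73, adjusted p 0.0403, lower in 2 of 2 cultures), on 0 and 7 HCT29 reads. This size too depends on the pseudocount, becoming -6.64 with 0.1 and -3.04 with 10. The call of miR-152-3p was lost under all 6 alternatives tried, whose adjusted p ranged from 0.0681 to 0.185. miR-152-3p and miR-148a-5p passed the filter only through HCT15, which favours a lower value in HCT29. Their line tests are therefore no independent support. miR-148a-3p had a limma log2 difference of -2.91 (SE 1.29, adjusted p 0.138, over the alternatives 0.139 to 0.370) and miR-148a-5p of -3.17 (SE 1.31, adjusted p 0.102, over the alternatives 0.0942 to 0.346). In both, the HCT15 and HCT29 libraries did not overlap, nor did they in miR-152-3p or miR-148b-5p (limma adjusted p 0.721). How many of all 222 miRNAs share this was not counted, so it is no support for a difference. miR-148b-3p had a limma log2 difference of -0.32 (SE 1.30, adjusted p 0.924), which turned positive under TMM scaling, and its libraries overlapped.

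The miRNAs whose pattern over the 4 libraries was most like that of a member were found by the root mean square difference of log2(RPM + 1), centred on each miRNA's own mean, among the 222. Nearest to miR-148a-3p was miR-484 at 0.373, followed by let-7g-5p, miR-221-5p, miR-339-3p and let-7c-5p, the last at 0.451, where the median miRNA was at 1.58. miR-484 stood at 225 and 314 RPM in HCT15 parental and sphere exosomes and at 36.1 and 56.5 RPM in HCT29. Nearest to miR-148b-3p were miR-425-3p (0.174), miR-26b-5p (0.208) and let-7i-5p (0.225), and nearest to miR-152-3p were miR-132-3p (0.625), miR-320d (0.649) and miR-7704 (0.961). The guides of the family were not nearest to each other. Of 221 candidates, miR-148b-3p was 78 in order from miR-148a-3p, at 1.36, and miR-152-3p was 134, at 1.77. Seen from miR-152-3p, whose median distance to all was 2.86, miR-148a-3p was 19 and miR-148b-3p 121. From miR-148b-3p, whose median was 1.14, they were 144 (miR-148a-3p) and 208 (miR-152-3p). With 4 libraries these distances are descriptions and share the depth of each library.

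Other miRNAs described as repressing DNA methyltransferases were compared as a list of 6 (miR-29a-3p, miR-29b-3p, miR-29c-3p, miR-143-3p, miR-185-5p and miR-342-3p). In HCT15, 3 of 4 measured were at least 2-fold higher in spheres and 0 lower, beside 32.1% and 28.2% of all measured miRNAs. miR-29a-3p, which targets DNMT3A and DNMT3B, was 2.28-fold higher (1.91 to 2.73), at 982 and 2235 RPM, and miR-143-3p, also a fibroblast and smooth muscle marker here, was 2.68-fold higher (2.27 to 3.18). In HCT29, 3 of 3 measured were lower and 0 higher, beside 36.2% and 23.2% of all, with miR-29a-3p 4.85-fold lower (3.64 to 6.45), at 913 and 188 RPM, and miR-143-3p 7.06-fold lower (5.35 to 9.35). TMM scaling gave 4 of 4 higher in HCT15, where 40.3% of all were higher, and 3 of 3 lower in HCT29, where 16.1% of all were lower. Beside them, miR-148a-3p had ratios of 1.56 and 0.835 in the same comparisons. Under TMM scaling these were 2.39 and 1.88, so in HCT29 it went the other way from the list. miR-342-3p, described as a repressor of DNMT1 in colorectal cells, had at most 1 read in any library.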

How the data were processed

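Exosomal small RNA of 4 libraries (TruSeq small RNA chemistry, 1 library per line and culture) was analysed. The deposited values are RPM per the file headers of the HCT15 tables. The HCT29 headers name no unit, but they behave in the same way, each being a whole multiple of 1 step, and were taken as RPM. Per the submitters' processing notes the build was hg19, while the aligner and the annotation used are not given in the sources used. Reads were recovered by dividing by the value of 1 read, and 100% of 2003 nonzero values came out whole within 0.1 read. No per-sample column was left out.

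Ratios are of RPM without a pseudocount, and calls use log2(RPM + 1) at 2-fold or more, where either library reached 10 reads. Intervals are exact 95% intervals on reads, and the floor is 3 reads. limma 3.58.1 (trend, terms for line and culture, Benjamini-Hochberg adjustment) and edgeR 4.0.16 were run in R 4.3.3, and DESeq2 1.42.0 gave size factors. Both tests were tested on simulated data for the culture term. In those data limma exceeded its nominal share of false calls with values scaled to the observed totals, as RPM is, and not with the true totals. With observed totals 192 of 1153 calls were false (16.7%), against 4.17% with true totals and 2.85% for edgeR. The line term was not simulated. Alternatives were TMM and DESeq2 scaling, scaling to listed miRNA reads, other pseudocounts, no filter and 1 model term. The arm comparison over all hairpins was added after the data were seen.

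The members, lists, marker lists and tests were chosen with earlier results of these data known. The named miRNAs are all members, miR-152-5p, the 5 nearest to miR-148a-3p and the 3 nearest to each other guide, and list members with 10 reads. Outside that rule, named after their values were seen, are miR-342-3p, miR-29c-3p and the 6 hairpins with larger arm shifts than miR-148a.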

Additional observations from a re-analysis of the deposited data

Results flagged for a closer look

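miR-148a-3p had a sphere to parental ratio above 1 in HCT15 (1.56) and below 1 in HCT29 (0.835), and so did miR-148b-3p (1.16 in HCT15 and 0.414 in HCT29). Opposite directions in the lines drew attention to both, the difference was not tested over replicates, and the counting intervals include 1 for miR-148a-3p in HCT29 and for miR-148b-3p in HCT15. Under TMM scaling miR-148a-3p was above 1 in both lines.

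miR-152-5p, the partner arm of miR-152 and no member of the family as chosen, had 5 reads in HCT15 sphere exosomes (10.84 RPM), above the level of 3 reads there (6.50 RPM), and 0 reads in the other libraries.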

How the results depend on the processing

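In HCT15 spheres the count of members called higher went from 0 to 2 under TMM scaling and to 3 under DESeq2 size factors. Of all measured miRNAs, 40.3% and 45.9% were higher under these. In HCT29 spheres the count called lower went from 2 to 0 under TMM and 0 under DESeq2 factors, where 16.1% and 16.5% of all were lower. It went to 1 with a pseudocount of 10, and the count called higher went from 0 to 1 with no filter. That added member is miR-152-3p, at 0 parental and 7 sphere reads, for which no fold is given. The share of all miRNAs was not taken for those settings. Between the sphere libraries the count lower in HCT29 went from 5 to 3 under TMM and 3 under DESeq2 factors. Of all measured miRNAs, 47.1% and 51.1% were lower there, near the share of the members. The called ratio of miR-148b-5p in HCT29 spheres turned from 0.452 to 1.02 under TMM. For culture, limma called 1 miRNA higher with TMM scaling and 0 otherwise. For the line, 8 higher and 20 lower became 5 and 5 with edgeR, 2 and 3 with a pseudocount of 0.1, 5 and 12 with no filter and 2 and 5 with a term for the line alone. In limma on TMM-scaled values the culture difference became 0.36 for miR-148b-3p and 0.0738 for miR-148b-5p, and the line difference of miR-148b-3p 0.21. edgeR gave 0.15 and 0.0607 for miR-148b-3p in culture and line. The cause was not tested. Of 51 alternative ratios of members, 5 changed side of 1: those of miR-148b-5p in HCT15 and miR-148a-3p in HCT29 under TMM and DESeq2 factors, and that of miR-148b-5p in HCT29 under TMM. No paired analysis was possible because each group holds 1 library, and the line stands as a term in the model instead. Leaving out a library leaves the model no residual degrees of freedom. At 1.88 to 9.04 RPM per read, miR-152-3p and miR-148a-5p in HCT29 rest on 0 to 9 reads.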
